A study of Saccharomyces cerevisiae with 12 samples.

Results

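Transcript levels after 3 h in concanamycin A were compared with those at 0 h in budding yeast, Saccharomyces cerevisiae. The strain was BY4741, haploid and of mating type a, whose HIS3, LEU2, MET17 and URA3 genes are deleted in whole or part. The comparison set the 3 libraries labelled 3 h against the 3 labelled 0 h, out of 12 libraries that also cover 1 h and 6 h, over all 6216 features of the count table. All libraries came from the same strain in rich YPD medium, in the exponential phase, and the dose given for all of them was 500 nM. Ribosomal RNA was removed and stranded libraries of total RNA were sequenced. No cultures left untreated for the same 3 h were analysed here, and time therefore changed along with exposure. Whether the libraries of a group stem from separate cultures is not in the labels, so the p-values reflect the spread among these samples only, and that spread may be technical.

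Concanamycin A is a macrolide that blocks the V-ATPase, the proton pump of the vacuole and other acidic compartments. The proton gradient that this pump builds drives the storage of iron, zinc, calcium, phosphate and amino acids in the yeast vacuole, and it is needed for loading copper onto secreted proteins. Iron uptake genes are controlled in yeast by the activators Aft1 and Aft2, sulfur genes by Met4 with Cbf1, phosphate genes by Pho4 and sterol genes by Upc2 and Ecm22, each of which binds a short DNA motif upstream of its targets.

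Short stretches upstream of genes that the results below turn on are printed here, since they hold the motifs of these activators. Each motif was searched on both strands in the window from 600 to 100 bases before the start codon of 5763 nuclear reading frames, and no motif named here contains another. Sequences come from the RefSeq assembly of build R64 and are written 5′ to 3′ on the strand of the gene. Capitals mark only the motif that each block is printed for, so letters of another motif can stand in lower case. A match is a description of letters and does not show binding. The motif GCACCC of Aft1 and Aft2, or its reverse complement GGGTGC, lay in 8.47% of all windows, in 7 of 7 windows of the list of iron retention and siderophore genes and in 8 of 9 of the reductive iron uptake list. FIT2, FIT3, FTR1 and TIS11 are shown, at chrXV:1059370-1059430, chrXV:1061204-1061269, chrV:461879-461944 and chrXII:416796-416861; FIT2 is on the plus strand and the other three are on the minus strand.
FIT2: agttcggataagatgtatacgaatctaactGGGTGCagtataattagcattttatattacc
FIT3: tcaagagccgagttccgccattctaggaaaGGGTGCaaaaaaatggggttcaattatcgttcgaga
FTR1: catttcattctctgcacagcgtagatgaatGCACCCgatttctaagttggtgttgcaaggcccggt
TIS11: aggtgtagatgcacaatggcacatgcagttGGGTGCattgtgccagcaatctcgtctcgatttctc

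The palindrome CACGTG, which Cbf1 and Pho4 can each bind, lay in 6.87% of all windows, in 9 of 10 of the sulfate assimilation list, in 7 of 12 of the phosphate transport list and in 10 of 14 of the list of phosphatases and polyphosphate genes. MET3 (chrX:455849-455914, plus strand) and SUL2 (chrXII:323206-323271, plus strand) are genes of sulfate uptake and assimilation. PHO84 (chrXIII:26179-26244, minus strand) and PHO5 (chrII:431169-431234, minus strand) are genes of the phosphate response, and the 4 stretches show the same letters before genes that moved in different ways.
MET3: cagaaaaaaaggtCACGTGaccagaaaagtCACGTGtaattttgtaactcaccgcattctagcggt
SUL2: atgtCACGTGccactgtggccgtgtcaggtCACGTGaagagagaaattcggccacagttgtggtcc
PHO84: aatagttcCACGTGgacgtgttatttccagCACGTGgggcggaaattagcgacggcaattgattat
PHO5: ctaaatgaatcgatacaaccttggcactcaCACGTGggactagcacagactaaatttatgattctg

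The motif TCGTATA of Upc2 and Ecm22, or TATACGA on the other strand, lay in 7.27% of all windows, in 6 of 13 of the late sterol synthesis list and in 6 of 8 of the anaerobic mannoprotein list. It also lay in 3 of 7 windows of the iron retention and siderophore list, that of FIT2 among them. TIR1 (chrV:174691-174757, plus strand) and DAN1 (chrX:709874-709940, minus strand), which encode cell wall mannoproteins of anaerobic cells, are shown because both rose at 3 h.
TIR1: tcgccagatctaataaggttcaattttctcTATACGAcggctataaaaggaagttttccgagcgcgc
DAN1: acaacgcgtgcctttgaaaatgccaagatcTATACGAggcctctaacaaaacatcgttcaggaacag

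Library totals ran from 8844437 to 11008709 counts at 0 h and from 8580004 to 10195012 at 3 h, and levels below are CPM, counts divided by the library's adjusted total and scaled as edgeR does (CPM is an abundance per library, not per length). The 7 genes that mark mating type a stood at 12.6 to 542 CPM at 0 h, while the alpha pheromone genes MF(ALPHA)1 and MF(ALPHA)2 had 0 to 5 counts in each of the 6 libraries. LEU2 and URA3 had 0 to 3 counts in each of the 6 libraries and MET17 had 0, whereas HIS3, of which the strain lacks only part, stood at 62.7 to 80.6 CPM. Replicate C at 0 h stood apart from the other libraries of its time. In it 148 features were more than 2-fold lower and 24 more than 2-fold higher than the mean of replicates A and B, against 10 lower and 2 higher in replicate C at 3 h. The genes of trehalose and glycogen had a median log2 difference of -1.10 in that library and the Msn2/Msn4 stress genes -0.86, so every count below was also taken without it.

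At 3 h, 2851 of 5615 tested features (50.8%) had changed from 0 h by edgeR's quasi-likelihood test at an adjusted p under 0.05. Of all tested features 1474 rose (26.3%) and 1377 fell (24.5%). Changes of at least 2-fold were less common, with 152 features higher (2.71%) and 251 lower (4.47%). All 3 libraries at 3 h lay above all 3 at 0 h for 1644 features (29.3%) and below them for 1523 (27.1%). Without 0 h replicate C, 1475 features rose and 1706 fell.

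The scaling of the libraries moves all of these values together. The TMM factors, which centre most features at no change, were 0.843 to 0.881 at 0 h and 1.07 to 1.11 at 3 h. Under scaling by total counts, without those factors, the median feature had a log2 fold change of 0.35, and 3576 features rose while 498 fell. List medians were then 0.33 to 0.34 higher than those printed below, so changes are relative to the median feature, and a list median that changes sign under total counts is given with its value.

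**Figure D1:**
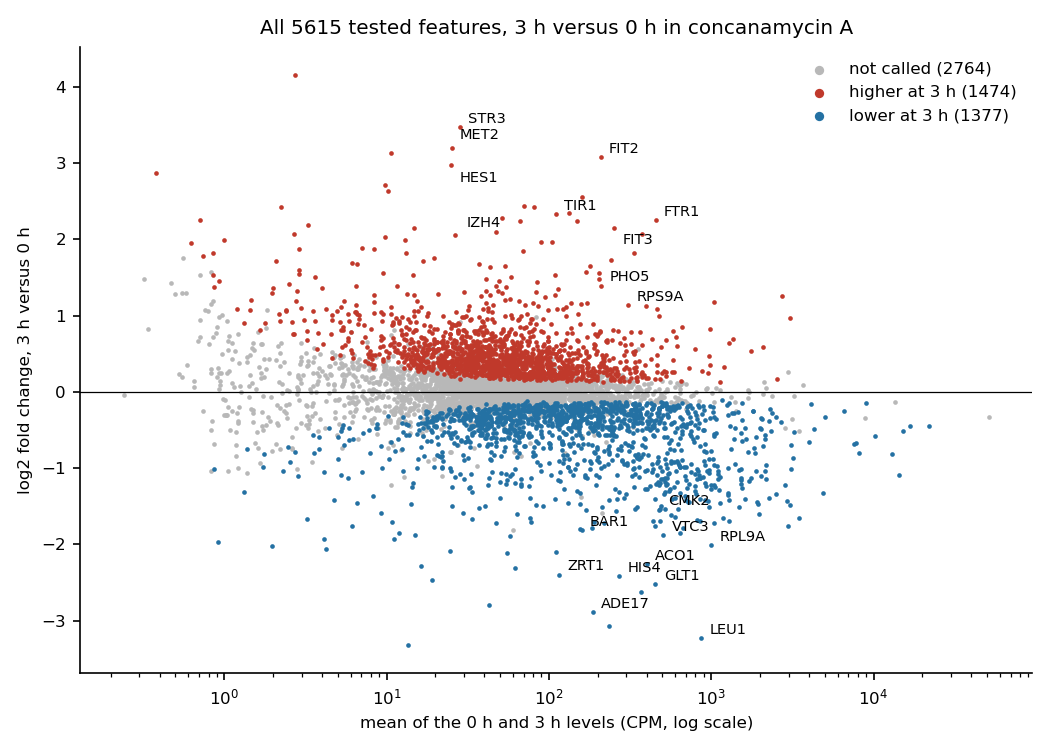
Log2 fold change of every tested feature at 3 h against 0 h (vertical axis) by the mean of its levels at both times (horizontal axis, CPM, log scale). Points are features, red where higher and blue where lower at an edgeR adjusted p under 0.05; FIT2, STR3 and MET2 lie at the top and LEU1, ADE17 and GLT1 at the bottom.

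The 15 largest increases past the threshold among features with at least 10 CPM and no overlap between the groups held 6 genes of iron supply (FIT2, SIT1, ARN1, FTR1, FRE5 and HMX1), the decay factor TIS11, the sulfur genes STR3 and MET2, the hypoxic and sterol-linked genes HES1, SET4 and TIR1, and MOH1, YOR338W and IZH4. The 15 largest decreases held 3 genes of iron-sulfur enzymes (LEU1, GLT1 and ACO1), the purine gene ADE17, the histidine gene HIS4, the zinc transporter gene ZRT1, the glycogen synthase gene GSY1, the catalase gene CTT1, and 2 ribosomal protein genes (RPL7B and RPL9A). HO, ISF1, EGO4, YMR085W and BSC1 completed them. The plot of all tested features shows most of these genes at its upper and lower edges.

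Levels at 3 h also differed from those on either side in time. Against 1 h, 1937 features (34.5%) differed, 951 higher at 3 h (16.9%) and 986 lower (17.6%). With total counts this split was 1734 higher and 552 lower. Against 3 h, 2396 features (42.7%) differed at 6 h, 1177 higher (21.0%) and 1219 lower (21.7%). These comparisons share the 3 h libraries with the main comparison, so their values are set side by side below.

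Genes of iron supply rose. All 7 genes of the list of iron retention and siderophore transport rose, with a median log2 fold change of 2.15 against 0.02 over all tested features. These genes encode the cell wall mannoproteins Fit1, Fit2 and Fit3, which hold siderophore-bound iron at the cell surface, and the siderophore transporters of the Arn family. In the reductive uptake list 7 of 9 rose and none fell, with a median of 0.89, and in the list of vacuolar and mitochondrial iron transport 5 of 9 rose and CCC1 fell, or 8 and 1 with total counts.

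In replicates A, B and C, in that order here and below, FIT2 stood at 43, 44.8 and 44.5 CPM at 0 h and 389, 369 and 359 CPM at 3 h. Its log2 fold change was 3.08 ± 0.06 (SE, 3 libraries per time, edgeR adjusted p = 3.9e-12). The groups did not overlap, and no library at either time stood apart. FIT3, the neighbour of FIT2 on chromosome XV, stood at 95.1, 96.8 and 86.1 CPM at 0 h and 444, 406 and 389 CPM at 3 h, a log2 fold change of 2.15 ± 0.07 (edgeR adjusted p = 7.3e-11). FIT2 (chrXV:1059531-1059992, plus strand), FIT3 (chrXV:1060441-1061055, minus strand) and FRE5 (chrXV:1061564-1063648, plus strand) lie side by side, and the region between FIT3 and FRE5 is upstream of both. FRE5, which encodes a protein of the ferric reductase family, stood at 2.78, 1.79 and 1.88 CPM at 0 h and 16, 20.4 and 21.3 CPM at 3 h, all 3 libraries at 3 h above those at 0 h (log2 fold change 3.13 ± 0.21, edgeR adjusted p = 4.6e-08).

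FIT1 and the siderophore transporter genes moved in the same direction. FIT1 stood at 4.12, 5.36 and 6.44 CPM at 0 h and 21, 20.7 and 20.7 CPM at 3 h. It rose by 1.99 ± 0.13 on the log2 scale (edgeR adjusted p = 5.7e-08), with libraries at 3 h almost level with each other. ARN1, a transporter of ferrichrome-type siderophores, stood at 40.1, 42.8 and 47.6 CPM at 0 h and 225, 223 and 217 CPM at 3 h (2.35 ± 0.06, edgeR adjusted p = 2.3e-11). SIT1, the ferrioxamine transporter, stood at 43.1, 34.7 and 62.9 CPM at 0 h and 273, 271 and 279 CPM at 3 h, with replicate C the highest at 0 h and still far below the 3 h libraries (2.55 ± 0.17, edgeR adjusted p = 3.1e-07).

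The reductive pathway frees iron at the surface with reductases and imports it through the Fet3 oxidase and the Ftr1 permease. FTR1 stood at 145, 148 and 181 CPM at 0 h and 746, 734 and 774 CPM at 3 h. Its log2 fold change was 2.25 ± 0.08 and that of FET3 was 1.18 ± 0.05 (edgeR adjusted p = 1.5e-10 and 6.3e-10). FET3 stood at 606, 615 and 683 CPM at 0 h and 1452, 1417 and 1447 CPM at 3 h, so the groups were apart for both genes. CCC2, the copper pump that loads Fet3 with copper in the Golgi, rose by a log2 fold change of 1.32 ± 0.08 (edgeR adjusted p = 1.9e-08), and ATX1, the chaperone that hands copper to Ccc2, by 0.99 ± 0.20 (edgeR adjusted p = 0.0018).

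Transporters of internal membranes were also among the genes that changed. SMF3, which exports iron from the vacuole, stood at 66.7, 58.9 and 66.4 CPM at 0 h and 132, 135 and 137 CPM at 3 h (1.07 ± 0.06, edgeR adjusted p = 7.8e-09). MRS4, a carrier of iron into mitochondria, rose from 45.7 ± 6.6 CPM (mean ± SD, n = 3) to 77.5 ± 1.38 CPM (0.76 ± 0.09, edgeR adjusted p = 9.6e-06). CCC1, which brings iron into the vacuole, fell from 34.9 ± 1.83 CPM to 22.5 ± 1.0 CPM (-0.63 ± 0.09, edgeR adjusted p = 6.2e-05; -0.30 with total counts). COT1, a vacuolar importer of zinc and cobalt, rose by 1.16 ± 0.06 (edgeR adjusted p = 7.3e-09).

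In the list of iron-sparing and other iron response genes 7 of 10 rose and 2 fell, or 7 and none with total counts. TIS11, also called CTH2, encodes a protein that binds AU-rich sites in mRNAs of iron-using proteins and speeds their decay. It stood at 24.6, 24.9 and 16.4 CPM at 0 h and 123, 123 and 112 CPM at 3 h, with replicate C the lowest at 0 h (log2 fold change 2.43 ± 0.13, edgeR adjusted p = 1.5e-08). HMX1, the heme oxygenase that recovers iron from heme, stood at 20.8, 18.3 and 13 CPM at 0 h and 96.7, 85.9 and 74.3 CPM at 3 h (log2 fold change 2.29 ± 0.20, edgeR adjusted p = 4.5e-06). CTH1, the paralog of TIS11, was one of the members that fell (-0.61 ± 0.12, edgeR adjusted p = 0.0014), a call lost with total counts. AFT2 rose from 40.9 ± 2.86 CPM to 59.8 ± 1.43 CPM (0.55 ± 0.07, edgeR adjusted p = 2.6e-05; 0.88 with total counts). LSO1, an iron-responsive gene, stood at 0.128 to 0.402 CPM at 0 h, a few counts per library, and at 4.24 to 5.84 CPM at 3 h, so its fold is not given. In the list of iron-sulfur cluster assembly 13 of 23 genes rose and 5 fell, or 16 and none with total counts. Without 0 h replicate C, 8 rose and 7 fell, and without 0 h replicate A, 3 h replicate A or 3 h replicate B, 3 fell. ISU2, a scaffold on which these clusters are built, stood at 78.1, 83.9 and 94.9 CPM at 0 h and 241, 247 and 276 CPM at 3 h (1.57 ± 0.10, edgeR adjusted p = 3.5e-08).

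The direct tests between neighbouring times separated the iron genes. FIT2 stood at 50.4 ± 2.26 CPM at 1 h and FIT3 at 74.6 ± 3.67 CPM, and 3 h exceeded 1 h by 2.88 and 2.47 on the log2 scale (edgeR adjusted p = 3.5e-12 and 6.0e-11). FTR1 already stood at 418 ± 10.4 CPM at 1 h, and 3 h exceeded 1 h by 0.85 (edgeR adjusted p = 2.3e-06). FET3 stood at 1324 ± 25.3 CPM at 1 h, and the difference of 0.12 did not pass (edgeR adjusted p = 0.071). At 6 h FIT3 stood at 1192 ± 66.7 CPM, 1.53 above 3 h (edgeR adjusted p = 5.7e-09), whereas the difference for FTR1 was 0.12 (edgeR adjusted p = 0.19).

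**Figure D2:**
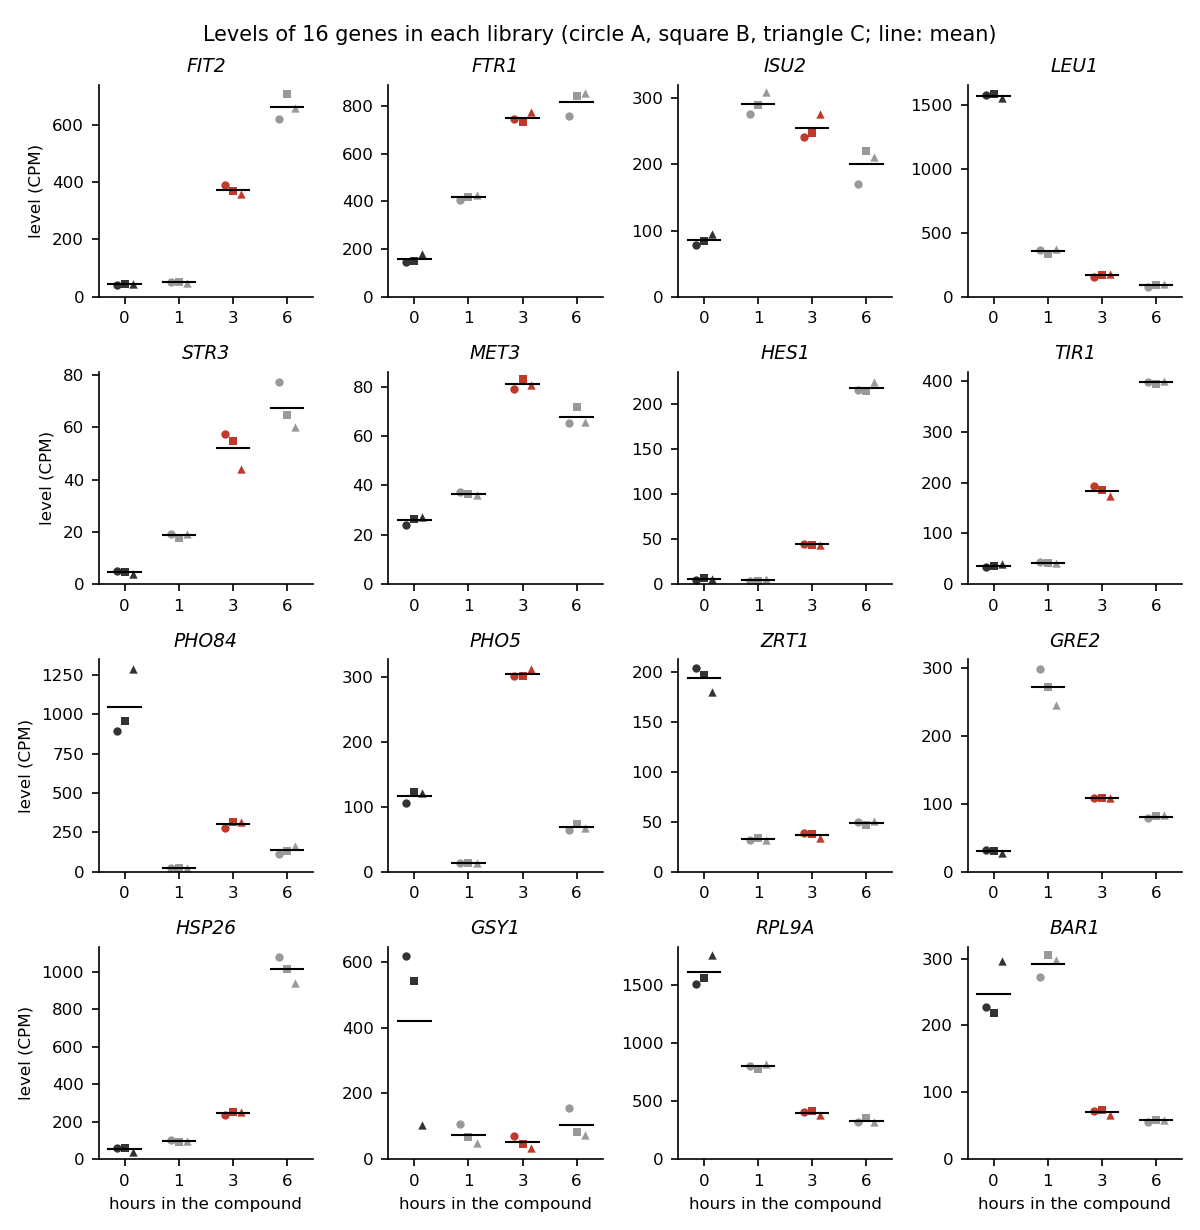
Levels of 16 genes (vertical axes, CPM, starting at 0) in each of the 12 libraries by hours in the compound (horizontal axes). Circles are replicate A, squares B and triangles C, and lines are means; red marks the 3 h libraries, and the triangle of GSY1 at 0 h lies far below the circle and the square of that time.

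The plot of levels by library sets these time courses side by side: FIT2 is near its 0 h level at 1 h, FTR1 is already higher there, and ISU2 has its highest mean there. The number of Aft motif matches upstream was then set against the change at 3 h over all tested reading frames. Of 5035 genes with no match 26.0% rose and 24.5% fell. Of 424 with 1 match 31.8% rose and 21.0% fell, and of 36 with 2 or more matches 52.8% rose and 13.9% fell. The median log2 fold changes were 0.02, 0.07 and 0.48. FRE5, FIT2, TIS11, FTR1, FIT3, FIT1 and CCC2 had the largest increases among the genes with 2 or more matches, and windows of neighbouring genes can overlap.

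**Figure D3:**
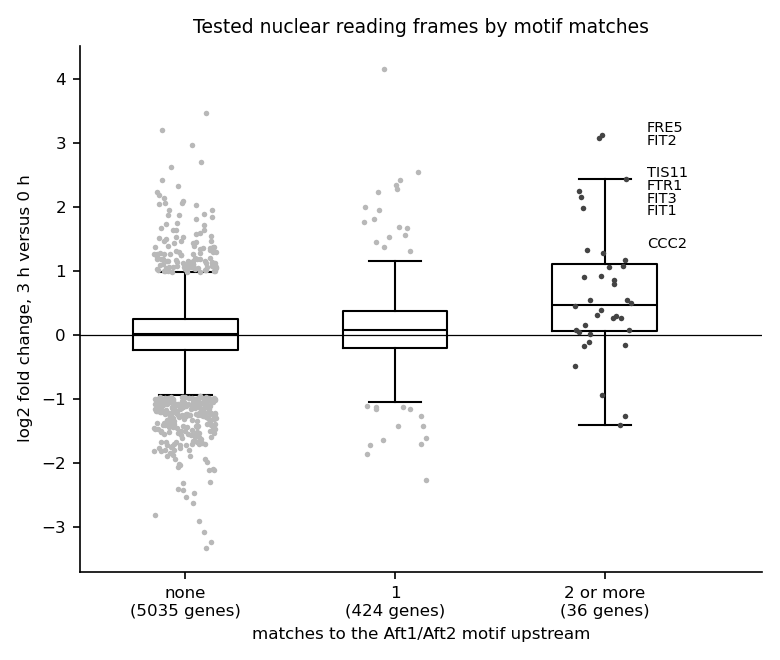
Log2 fold change at 3 h against 0 h (vertical axis) of tested nuclear reading frames with no, 1 or at least 2 matches to the Aft1/Aft2 motif upstream (horizontal axis). Boxes span the quartiles with the median as a line and whiskers reach 1.5 box lengths; points are genes beyond the whiskers, and all 36 genes in the last class, whose median is 0.48.

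Genes of iron-sulfur enzymes fell. Of 12 genes in the list of iron-sulfur enzymes 11 fell, with a median log2 fold change of -1.29, and MET5, a sulfite reductase subunit that is also a member of the sulfate assimilation list, rose. LEU1, the isopropylmalate isomerase of leucine synthesis, stood at 1575, 1583 and 1554 CPM at 0 h and 152, 169 and 179.6 CPM at 3 h. Its log2 fold change of -3.23 ± 0.09 was the largest decrease among features past the threshold with no overlap and at least 10 CPM (edgeR adjusted p = 2.3e-11). GLT1, glutamate synthase, stood at 783, 753 and 780.0 CPM at 0 h and 129, 132 and 141 CPM at 3 h (-2.52 ± 0.06, edgeR adjusted p = 1.3e-11). In both genes the libraries of a time lay close together and far from those of the other.

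ACO1, the mitochondrial aconitase, stood at 669, 652 and 668 CPM at 0 h and 129, 142 and 144 CPM at 3 h (-2.26 ± 0.07, edgeR adjusted p = 8.8e-11). It was among the genes that turned after 3 h, standing at 242 ± 28 CPM at 6 h (0.80 above 3 h, edgeR adjusted p = 4.7e-06). ILV3, the dihydroxyacid dehydratase shared by the isoleucine and valine pathways, stood at 1771, 1795 and 1802 CPM at 0 h and 517, 560.2 and 621 CPM at 3 h (-1.66 ± 0.11, edgeR adjusted p = 9.5e-08), and went on to 229 ± 41.8 CPM at 6 h. BIO2, biotin synthase, stood at 90.9, 90.8 and 89 CPM at 0 h and 21.8, 23 and 28.1 CPM at 3 h (-1.89 ± 0.09, edgeR adjusted p = 1.6e-09). SDH2, the iron-sulfur subunit of succinate dehydrogenase, stood at 86, 79.2 and 42.9 CPM at 0 h and 34.2, 30.02 and 28 CPM at 3 h, so replicate C at 0 h was low and the fold was -1.18 ± 0.24 (edgeR adjusted p = 0.0019).

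Heme proteins were mixed. Of 18 genes of heme and di-iron enzymes 5 rose and 7 fell, with a median of -0.10 that was 0.23 with total counts; without 0 h replicate C 4 rose and 10 fell. CYC1, the main cytochrome c, stood at 45.5, 49 and 48.8 CPM at 0 h and 17.9, 18.9 and 20.9 CPM at 3 h (-1.31 ± 0.11, edgeR adjusted p = 6.9e-07). CCP1, cytochrome c peroxidase, fell by 0.98 ± 0.08 on the log2 scale (edgeR adjusted p = 6.1e-07; by 0.65 with total counts). HEM15, ferrochelatase, which inserts iron into heme, fell by 0.83 ± 0.08 (edgeR adjusted p = 1.4e-06; by 0.50 with total counts), while the di-iron sterol desaturase gene ERG3 rose.

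Genes of branched-chain amino acid, histidine and purine synthesis fell as well. Of 12 genes of branched-chain amino acid synthesis 11 fell and none rose (median -0.96). With total counts 9 fell and 1 rose, and without 0 h replicate C 11 fell and 1 rose. The list includes LEU1 and ILV3, which are also members of the iron-sulfur list. LEU4, isopropylmalate synthase, stood at 857, 766 and 587 CPM at 0 h and 346, 340.2 and 322 CPM at 3 h (-1.13 ± 0.11, edgeR adjusted p = 6.1e-06). OAC1, the mitochondrial carrier that passes isopropylmalate to the cytosol, fell by 1.27 ± 0.09 and BAT1, the mitochondrial branched-chain aminotransferase, by 1.2 ± 0.06 (edgeR adjusted p = 8.6e-08 and 2.9e-09).

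Of 13 purine synthesis genes 12 fell and none rose (median -0.75; 8 fell and 1 rose with total counts). ADE17, which makes IMP in the last steps of the pathway, stood at 416, 355 and 212 CPM at 0 h and 51.8, 41.8 and 39.1 CPM at 3 h, with the lowest value of each time in replicate C (-2.89 ± 0.26, edgeR adjusted p = 9.5e-06). ADE13, adenylosuccinate lyase, stood at 433, 405 and 312 CPM at 0 h and 166, 155 and 142 CPM at 3 h (-1.32 ± 0.11, edgeR adjusted p = 7.1e-07). In the histidine list 5 of 6 fell (3 with total counts), led by HIS4 at 575, 480.4 and 308 CPM at 0 h and 89.96, 85.7 and 80.3 CPM at 3 h (-2.41 ± 0.18, edgeR adjusted p = 1.1e-06). Other amino acid lists were mixed. Of 9 lysine genes 1 rose and 5 fell, with a median of -0.14 that was 0.20 with total counts, when 4 rose and 2 fell. Of 10 arginine genes 3 rose and 3 fell, or 3 and 6 without 0 h replicate C, with a median of -0.16 that was 0.17 with total counts. MTD1 and SHM2, which pass folate-bound carbon units to purines, fell by 1.4 ± 0.27 and 1.21 ± 0.07 (edgeR adjusted p = 0.0017 and 6.7e-09). The motif TGACTC bound by Gcn4, which switches on amino acid synthesis genes, lay in 13.8% of all windows. It lay in 9 of 12 branched-chain, 10 of 13 purine and 4 of 6 histidine windows. In the mixed lists it lay in 9 of 10 arginine and 4 of 9 lysine windows. Of 90 tested genes with 2 or more Gcn4 matches 25.6% rose and 27 of 90 fell. Of genes with no match 27.1% rose and 23.4% fell, so the share that fell was larger with 2 or more matches.

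Sulfate assimilation genes rose. Of 10 genes of sulfate assimilation, which reduces sulfate to sulfide, 8 rose and 1 fell (median 0.71), and 8 of them were also higher at 3 h than at 1 h. MET3, ATP sulfurylase, stood at 24, 26.6 and 27.2 CPM at 0 h and 79.2, 83 and 80.5 CPM at 3 h. It rose by 1.64 ± 0.07 on the log2 scale (edgeR adjusted p = 6.1e-10). SUL2, a sulfate permease, stood at 19.5, 18.8 and 14.6 CPM at 0 h and 61.5, 56 and 52 CPM at 3 h (1.67 ± 0.12, edgeR adjusted p = 1.6e-07). The stretches of both genes printed above hold CACGTG 2 times.

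Downstream of sulfide the genes split. Of 16 genes of homocysteine, cysteine and methionine synthesis 6 rose and 8 fell, with a median of -0.20 that was 0.13 with total counts. STR3, the peroxisomal cystathionine beta-lyase, stood at 5.05, 4.85 and 4.02 CPM at 0 h and 57.6, 54.6 and 44.1 CPM at 3 h. Its log2 fold change of 3.47 ± 0.15 was the largest increase by the rule given above (edgeR adjusted p = 8.3e-10). MET2, homoserine acetyltransferase, which makes the acceptor for sulfide, stood at 5.26, 3.7 and 5.76 CPM at 0 h and 44.7, 46.5 and 44.9 CPM at 3 h (3.2 ± 0.14, edgeR adjusted p = 8.3e-10). MET17, the enzyme that joins sulfide to that acceptor, is among the genes deleted in BY4741.

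Of 13 genes of sulfur compound transport and Met4 regulation 6 rose and none fell, or 11 and none with total counts. MUP1, the high-affinity methionine permease, stood at 30.9, 36.3 and 61.5 CPM at 0 h and 167, 168 and 162 CPM at 3 h, with replicate C the highest at 0 h (1.96 ± 0.20, edgeR adjusted p = 1.8e-05). MET30, the ubiquitin ligase subunit that restrains Met4, rose from 47.3 ± 3.3 CPM to 85.4 ± 0.319 CPM (0.86 ± 0.09, edgeR adjusted p = 3.0e-06). Of 49 tested genes with 2 or more CACGTG matches 40.8% rose and 20.4% fell, and of 5116 with none 26.2% rose and 24.2% fell. At 6 h STR3 stood at 67.4 ± 9.0 CPM and MET3 at 67.6 ± 3.62 CPM, 0.37 above and 0.26 below 3 h on the log2 scale (edgeR adjusted p = 0.016 and 0.0053).

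Late sterol synthesis genes were higher at 3 h. Of 13 genes of the late steps of ergosterol synthesis 10 rose and none fell (median 0.50), and 12 of 13 were higher at 3 h than at 1 h. ERG3, the C-5 sterol desaturase, stood at 276, 297 and 315 CPM at 0 h and 629, 631 and 629 CPM at 3 h (1.09 ± 0.06, edgeR adjusted p = 4.8e-09), after 191 ± 3.09 CPM at 1 h. ERG5, the C-22 sterol desaturase, stood at 79.5, 91.4 and 124 CPM at 0 h and 202, 219 and 233 CPM at 3 h, with replicate C the highest at each time (1.15 ± 0.13, edgeR adjusted p = 1.5e-05). ERG28, a scaffold of these enzymes, rose by 1.02 ± 0.06 (edgeR adjusted p = 1.6e-08). Of 10 genes of the early steps 5 rose and none fell, or 3 without 0 h replicate B and 10 with total counts.

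UPC2, the activator of sterol genes, showed the same course. It stood at 124, 138 and 126 CPM at 0 h and 214, 204 and 167 CPM at 3 h (0.59 ± 0.10, edgeR adjusted p = 0.00033; 0.92 with total counts), at 65 ± 3.72 CPM at 1 h and at 403 ± 47.3 CPM at 6 h. The differences were 1.59 between 1 h and 3 h and 1.05 between 3 h and 6 h (edgeR adjusted p = 1.5e-07 and 6.7e-06). YEH1, a steryl ester hydrolase, rose from 25.5 ± 5.75 CPM to 61.1 ± 2.43 CPM (1.27 ± 0.14, edgeR adjusted p = 7.8e-06). HES1, an oxysterol-binding protein, stood at 4.33, 6.9 and 5.9 CPM at 0 h and 45.3, 44.1 and 43.8 CPM at 3 h (2.98 ± 0.12, edgeR adjusted p = 6.1e-10), at 4.51 ± 0.831 CPM at 1 h and at 219 ± 5.63 CPM at 6 h.

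Cell wall mannoproteins that replace the aerobic ones under low oxygen followed. In their list 4 of 8 genes rose and none fell (median 0.46; 7 and none with total counts), and 7 of 8 rose from 3 h to 6 h. TIR1 stood at 34.6, 35.6 and 39.1 CPM at 0 h and 192, 185 and 174 CPM at 3 h (2.33 ± 0.06, edgeR adjusted p = 1.3e-11), and DAN1 stood at 4.02, 2.94 and 4.56 CPM at 0 h and 16.6, 16.5 and 14.2 CPM at 3 h (2.03 ± 0.15, edgeR adjusted p = 1.2e-07). Hypoxic isoforms and regulators were mixed. In their list 5 of 10 rose and 1 fell, or 5 and 3 without 0 h replicate C. HEM13, the oxygen-dependent heme synthesis gene that is induced in hypoxic cells, was the member that fell (-0.45 ± 0.08, edgeR adjusted p = 0.00047), a call lost with total counts. SET4, a SET-domain protein of hypoxic cells, stood at 3.3, 2.43 and 1.88 CPM at 0 h and 14.9, 15.9 and 19.9 CPM at 3 h (2.71 ± 0.17, edgeR adjusted p = 2.7e-08). PBI1, a further hypoxic gene, stood at 19.999, 17.8 and 15.7 CPM at 0 h and 102, 72.2 and 55.6 CPM at 3 h (2.09 ± 0.26, edgeR adjusted p = 0.0001), and reached 782 ± 196 CPM at 6 h. At 1 h the means of SET4 and PBI1 were 2.35 ± 0.226 CPM and 13.8 ± 2.03 CPM, and 3 h exceeded 1 h by 2.85 and 2.46 (edgeR adjusted p = 4.6e-08 and 7.0e-05). Of 22 tested genes with 2 or more TCGTATA matches 31.8% rose and 22.7% fell, beside the 26.4% and 24.7% of genes with no match.

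PHO84, SPL2 and PHO5 had low levels at 1 h and were higher again at 3 h. PHO84, the high-affinity phosphate transporter, stood at 892, 957 and 1287 CPM at 0 h and 276, 315 and 318 CPM at 3 h. Its log2 fold change was -1.79 ± 0.15 against 0 h (edgeR adjusted p = 2.3e-06), and 3 h exceeded 1 h by 3.56 (edgeR adjusted p = 6.2e-08), where its mean was 25.7 ± 0.651 CPM. Replicate C was the highest of the 0 h libraries. SPL2, which limits low-affinity phosphate uptake, stood at 43.8, 48.1 and 44.4 CPM at 0 h and 19.1, 17.2 and 20.3 CPM at 3 h and at 2.04 ± 0.408 CPM at 1 h (-1.27 ± 0.12 against 0 h, edgeR adjusted p = 1.6e-06).

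PHO5, the secreted acid phosphatase, crossed its 0 h level. It stood at 105, 122 and 121 CPM at 0 h and 302, 301 and 312 CPM at 3 h and at 13.1 ± 0.405 CPM at 1 h. The log2 fold changes at 3 h were 1.39 ± 0.06 against 0 h and 4.54 against 1 h (edgeR adjusted p = 1.5e-09 and 4.0e-13). At 6 h it stood at 68.2 ± 4.31 CPM, a fall of 2.16 from 3 h on the log2 scale (edgeR adjusted p = 3.2e-10). PHM6, a phosphate-responsive gene, had the same order, from 7.68 ± 2.05 CPM at 0 h to 14.3 ± 2.09 CPM at 3 h (0.92 ± 0.18, edgeR adjusted p = 0.001).

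VTC3, a subunit of the vacuolar polyphosphate polymerase, was lower than at 0 h. It stood at 794, 772 and 821 CPM at 0 h and 210.1, 212 and 225 CPM at 3 h (-1.88 ± 0.05, edgeR adjusted p = 2.3e-11). PHO8, the vacuolar alkaline phosphatase, fell from 448 ± 14.1 CPM to 249 ± 1.74 CPM (-0.85 ± 0.05, edgeR adjusted p = 5.9e-09; by 0.51 with total counts). Of 12 genes of phosphate transport and regulation 3 rose and 3 fell against 0 h (7 and 3 with total counts), with 8 higher and 1 lower against 1 h. Their median against 0 h was -0.02, and 0.32 with total counts. Among phosphatases and polyphosphate genes 3 of 14 rose and 9 fell (median -0.48; 5 and 7 with total counts), with 10 higher and 2 lower against 1 h, and 10 then fell from 3 h to 6 h. PHO84 and PHO5, whose stretches printed above both hold CACGTG, moved in opposite directions against 0 h.

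Of the zinc and copper uptake genes, ZRT1, ZRT2, CTR1 and FRE7 were lower at 3 h. ZRT1, the high-affinity zinc transporter, stood at 204, 197 and 179 CPM at 0 h and 39.1, 37.9 and 33.4 CPM at 3 h (-2.4 ± 0.07, edgeR adjusted p = 4.4e-11). ZRT2, its low-affinity counterpart, fell from 119 ± 2.13 CPM to 36.2 ± 5.36 CPM (-1.71 ± 0.10, edgeR adjusted p = 1.2e-08). ZAP1, their activator, stood at 23.6, 16.1 and 21.2 CPM at 0 h and 10.5, 11.5 and 14.8 CPM at 3 h (-0.72 ± 0.17, edgeR adjusted p = 0.0035), a call that was lost with total counts (-0.39). ZRC1, which carries zinc into the vacuole, fell by 0.76 ± 0.05 (edgeR adjusted p = 5.0e-08; by 0.43 with total counts). In the whole zinc list 3 of 12 rose and 6 fell, with a median of -0.19 that was 0.14 with total counts.

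CTR1, the plasma membrane copper transporter, stood at 46.8, 43.9 and 47.5 CPM at 0 h and 19.99, 19.7 and 18.6 CPM at 3 h (-1.25 ± 0.09, edgeR adjusted p = 1.6e-07). FRE7, a surface reductase induced when copper is low, stood at 7.53, 4.6 and 7.37 CPM at 0 h and 1.41, 1.59 and 2.03 CPM at 3 h (-1.94 ± 0.28, edgeR adjusted p = 8.2e-05). These were the 2 members of the copper list of 12 that fell, while 6 rose, among them CCC2 and ATX1 given above. The median of the copper list was 0.20, and 9 rose and 2 fell with total counts. Neither ZRT1 nor CTR1 differed between 1 h and 3 h past the threshold (edgeR adjusted p = 0.094 and 0.28).

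The direction of the calcium and calcineurin list depended on the scaling. Of its 17 genes 3 rose and 6 fell, with a median of -0.01 that was 0.32 with total counts, when 11 rose and 3 fell. Without 3 h replicate C 3 rose and 3 fell. CMK2, a calmodulin-dependent kinase, stood at 653, 719.5 and 788 CPM at 0 h and 262, 254 and 228 CPM at 3 h (-1.54 ± 0.08, edgeR adjusted p = 3.0e-09). CRZ1, the transcription factor that calcineurin activates, fell from 160.2 ± 6.93 CPM to 83.6 ± 2.21 CPM (-0.94 ± 0.06, edgeR adjusted p = 1.5e-08; by 0.60 with total counts), and RCN1, a calcineurin regulator, fell by 0.89 ± 0.15 (edgeR adjusted p = 0.0003; by 0.55 with total counts). GSC2, an inducible glucan synthase, stood at 258, 244 and 248 CPM at 0 h and 596, 537 and 497 CPM at 3 h (1.12 ± 0.09, edgeR adjusted p = 2.9e-07), and reached 1208 ± 132 CPM at 6 h. From 3 h to 6 h 11 of the 17 genes rose.

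**Figure D4:**
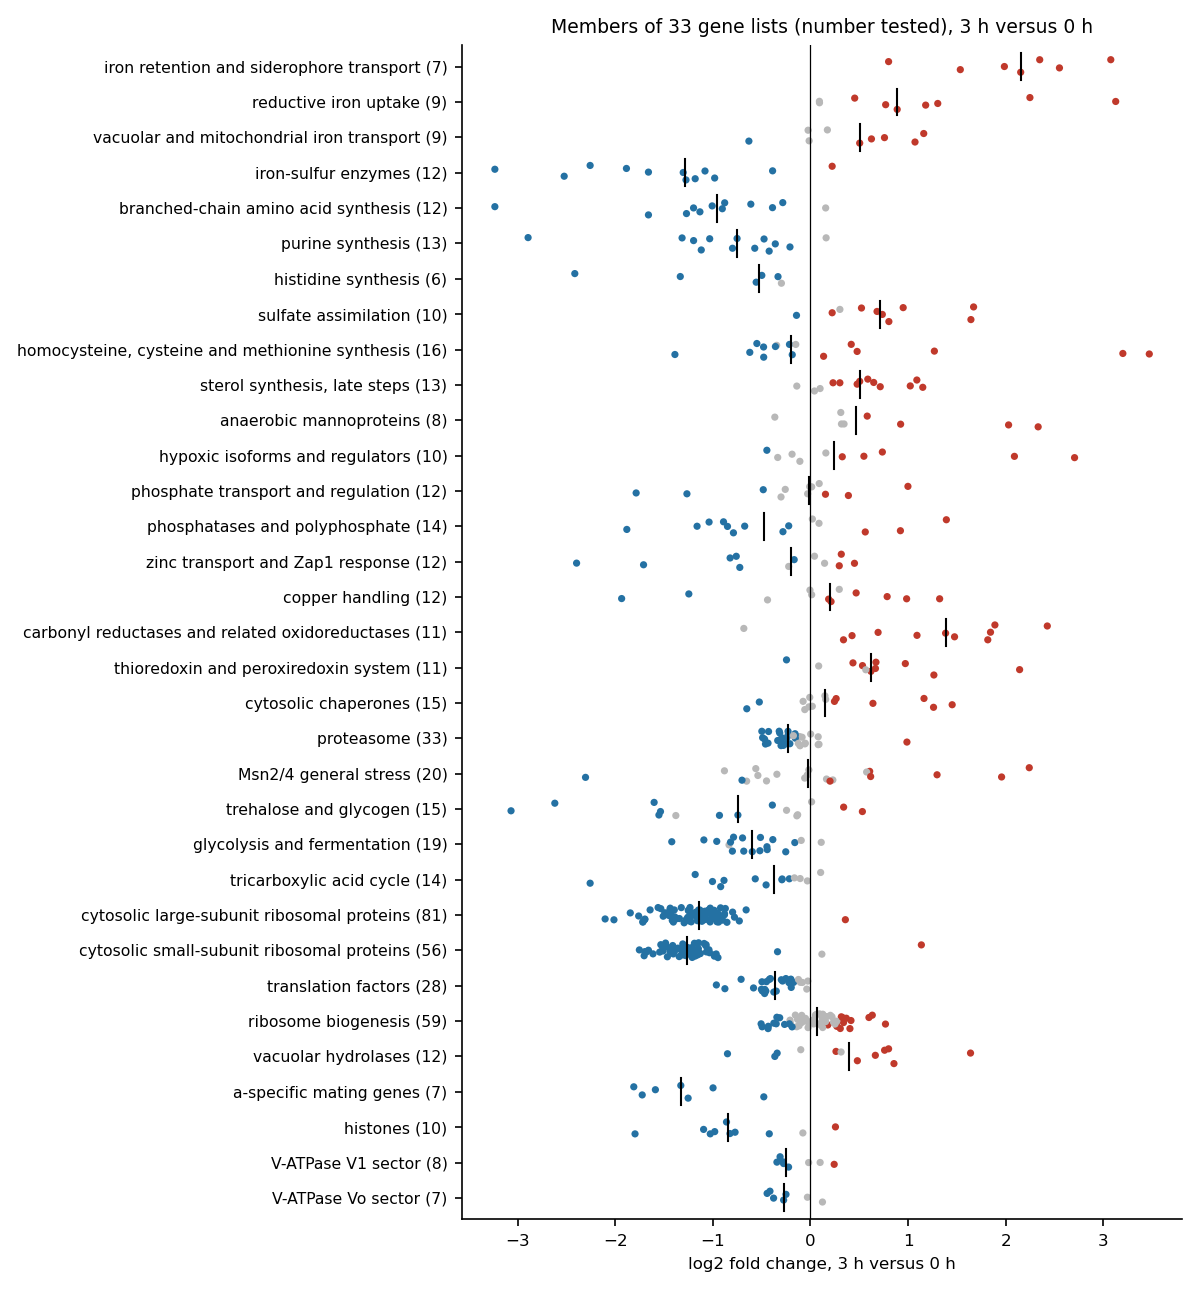
Log2 fold changes at 3 h against 0 h (horizontal axis) of the tested members of 33 gene lists (vertical axis, number tested in parentheses). Points are genes, red or blue where higher or lower at an edgeR adjusted p under 0.05 and grey otherwise, and black bars are list medians, from 2.15 for iron retention and siderophore transport to -1.33 for the a-specific mating genes.

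Most genes of carbonyl reductases and of the thioredoxin system stood above 0 h. Of 11 carbonyl reductases and related oxidoreductases 10 rose and none fell, with a median of 1.38, while 4 were higher and 4 lower than at 1 h. GRE2, a methylglyoxal reductase, stood at 31.4, 30.9 and 27.9 CPM at 0 h and 108, 108 and 109 CPM at 3 h (1.85 ± 0.08, edgeR adjusted p = 5.5e-10), after 272 ± 26.6 CPM at 1 h, from which it fell by 1.33 on the log2 scale (edgeR adjusted p = 1.6e-08). SRX1, sulfiredoxin, which repairs oxidised peroxiredoxins, stood at 5.98, 5.62 and 4.56 CPM at 0 h and 24.3, 24.5 and 23.3 CPM at 3 h (2.14 ± 0.11, edgeR adjusted p = 4.6e-09) after 51.7 ± 2.54 CPM at 1 h. OYE3, an NADPH oxidoreductase, stood at 2.47, 3.96 and 2.55 CPM at 0 h and 13.6, 10.7 and 9.02 CPM at 3 h (1.89 ± 0.20, edgeR adjusted p = 4.4e-06) and was higher again at 6 h, at 22.5 ± 1.24 CPM. The plot of gene lists shows all but 1 member of this list to the right of 0.

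In the thioredoxin and peroxiredoxin list 8 of 11 rose and 1 fell (median 0.62), or 10 and none with total counts and 8 and none without 0 h replicate C. Of the 11, 7 were lower at 3 h than at 1 h and 1 was higher. PRX1, the mitochondrial peroxiredoxin, stood at 75.1, 69.6 and 46.3 CPM at 0 h and 155, 157 and 148 CPM at 3 h (1.26 ± 0.14, edgeR adjusted p = 2.2e-05), and AHP1, an abundant thiol peroxidase, at 2092, 2163 and 1911 CPM at 0 h and 4009, 4088 and 4001 CPM at 3 h (0.97 ± 0.05, edgeR adjusted p = 3.4e-09). Other redox lists were mixed. In the glutathione list 6 of 13 rose and 2 fell, or 6 and 4 without 0 h replicate C and 10 and 1 with total counts. GTT2, a glutathione transferase, rose by 1.31 ± 0.10 (edgeR adjusted p = 2.3e-07). Of 6 genes of catalases and superoxide dismutases 3 rose and 2 fell, or 2 and 2 without 0 h replicate C and 4 and 2 with total counts. CTT1, the cytosolic catalase and a heme enzyme, fell. It stood at 141, 134 and 35.3 CPM at 0 h and 24.2, 20.3 and 18.7 CPM at 3 h, so replicate C at 0 h lay near the 3 h libraries (-2.31 ± 0.46, edgeR adjusted p = 0.0024).

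Chaperones had come down from 1 h. Of 15 cytosolic chaperone genes 6 rose and 2 fell against 0 h (13 and 2 with total counts), while 12 were lower and 1 higher than at 1 h. HSP82, the inducible Hsp90, stood at 903, 1077 and 1044 CPM at 0 h and 1406, 1675 and 1631 CPM at 3 h (0.64 ± 0.08, edgeR adjusted p = 1.7e-05; 0.98 with total counts), and HSC82, the constitutive Hsp90, at 4678, 4790.2 and 5228 CPM at 0 h and 2998, 3178 and 3174 CPM at 3 h (-0.65 ± 0.05, edgeR adjusted p = 4.0e-07; -0.32 with total counts). At 1 h they stood at 3415 ± 129 CPM and 7192 ± 237 CPM. SSA4, an inducible Hsp70, rose from 106 ± 24.9 CPM to 238 ± 19.7 CPM (1.16 ± 0.12, edgeR adjusted p = 1.0e-05).

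Small heat shock proteins and sequestrases split. HSP26, a small heat shock protein, stood at 56.7, 60.8 and 37.1 CPM at 0 h and 235, 249.6 and 249 CPM at 3 h (2.24 ± 0.14, edgeR adjusted p = 7.8e-08). HSP12, a membrane-associated stress protein, stood at 54.3, 48.7 and 5.76 CPM at 0 h and 135, 145 and 149 CPM at 3 h, where the value of replicate C at 0 h was far below the other two (1.96 ± 0.51, edgeR adjusted p = 0.012; 1.44 without it, edgeR adjusted p = 1.7e-06). BTN2, a sequestrase of misfolded proteins, fell to 110.2 ± 23.2 CPM from 313 ± 72.4 CPM (-1.5 ± 0.22, edgeR adjusted p = 0.00032), and HSP42 fell by 0.82 ± 0.18 (edgeR adjusted p = 0.003; by 0.49 with total counts). All 5 genes of this list rose from 3 h to 6 h.

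The direction of the proteasome list depended on the scaling. Of 33 genes 21 fell and 1 rose, but the median of -0.23 was 0.11 with total counts, when 14 rose and 2 fell. The gene that rose was RPN4, the activator of the other members, which stood at 87.3, 89.4 and 79.2 CPM at 0 h and 164, 169.7 and 174 CPM at 3 h (0.99 ± 0.07, edgeR adjusted p = 5.6e-08). Against 1 h 32 of 33 were lower. Of 12 vacuolar hydrolase genes 7 rose and 3 fell, PHO8 among them, or 9 and 1 with total counts. AMS1, the vacuolar alpha-mannosidase, stood at 22.8, 25.3 and 14.3 CPM at 0 h and 67.5, 66.2 and 62.3 CPM at 3 h (1.64 ± 0.19, edgeR adjusted p = 3.1e-05). PEP4, proteinase A, stood at 474, 449 and 356 CPM at 0 h and 756, 748 and 725 CPM at 3 h (0.80 ± 0.09, edgeR adjusted p = 8.9e-06), and PRB1, proteinase B, rose by 0.86 ± 0.09 (edgeR adjusted p = 4.4e-06). Of 35 autophagy genes 14 rose and 2 fell, or 9 and 2 without 0 h replicate C and 28 and none with total counts. ATG40, a receptor for autophagy of the endoplasmic reticulum, rose from 11.8 ± 1.48 CPM to 23.6 ± 0.856 CPM (0.99 ± 0.10, edgeR adjusted p = 2.3e-06).

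Stores of glucose and the general stress genes are where 0 h replicate C matters most. Of 15 genes of trehalose and glycogen 2 rose and 8 fell (median -0.74; 2 and 3 with total counts). The number that fell was 12 without that library, 2 without 0 h replicate A, 3 without 0 h replicate B, 4 without 3 h replicate B and 2 without 3 h replicate C. GSY1, glycogen synthase, stood at 616, 543 and 102 CPM at 0 h and 70.4, 47.3 and 33.6 CPM at 3 h (-3.07 ± 0.68, edgeR adjusted p = 0.0051; -3.57 without replicate C of 0 h). GPH1, glycogen phosphorylase, stood at 975, 822 and 114 CPM at 0 h and 155, 93.2 and 64 CPM at 3 h, and these groups overlapped (-2.62 ± 0.77, edgeR adjusted p = 0.02). Its call was lost without 0 h replicate A (-2.18), 0 h replicate B (-2.43), 3 h replicate B (-2.55) or 3 h replicate C (-2.36).

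In the list of Msn2/Msn4 stress genes 6 of 20 rose and 2 fell, with a median of -0.02 that was 0.30 with total counts. Without 0 h replicate C 5 rose and 8 fell (median -0.28). In the storage and the stress list the number called therefore depends on single libraries. The list of hexose transport and sensing had 3 of 13 higher and 6 lower, with a median of -0.18 that was 0.15 with total counts, when 6 rose and 5 fell. The number that fell was 3 without 0 h replicate A, 3 without 3 h replicate B and 2 without 3 h replicate C. HXT7, the member of this list for a high-affinity glucose transporter whose reads may not be told from those of its near-identical copy HXT6, stood at 125, 89.9 and 8.18 CPM at 0 h and 20.4, 9.02 and 3.72 CPM at 3 h, and the groups overlapped (-2.8 ± 0.99, edgeR adjusted p = 0.041). That call was lost with only the 6 libraries in the fit (-2.79), and without 0 h replicate A (-2.19), 0 h replicate B (-2.69), 3 h replicate B (-2.69) or 3 h replicate C (-2.36).

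**Figure D5:**
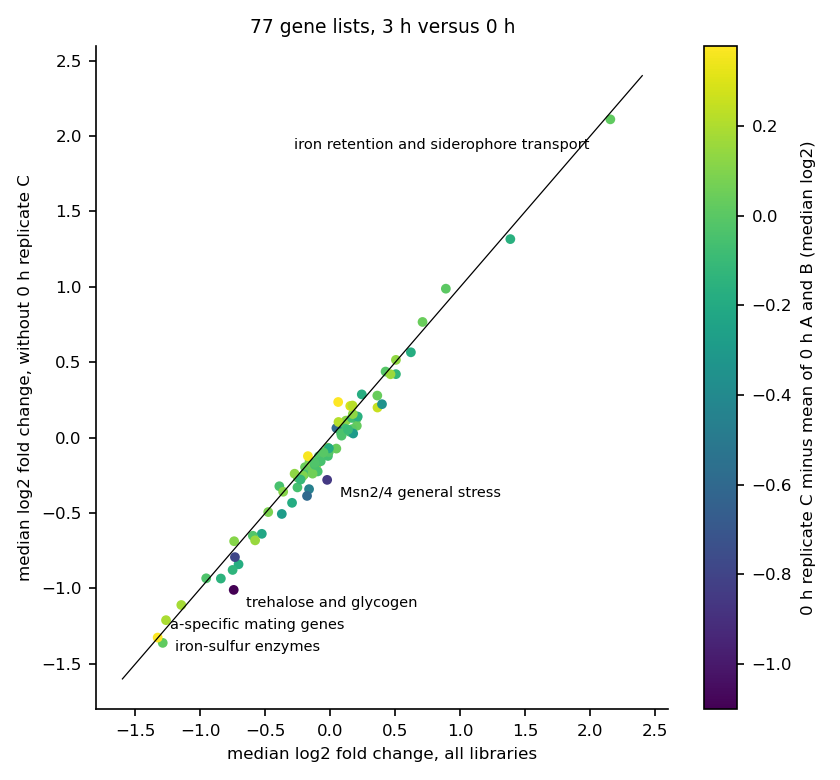
Median log2 fold change of 77 gene lists with at least 4 tested members, at 3 h against 0 h, with all libraries (horizontal axis) and without 0 h replicate C (vertical axis); the line marks equal values. Colour is the median log2 difference of replicate C from the mean of replicates A and B at 0 h, lowest for trehalose and glycogen at -1.10, whose median was -0.74 with and -1.01 without that library.

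The plot of list medians with and without that library shows most lists near the line of equal values, and 56 of 77 medians moved by at most 0.1. The iron retention list moved from 2.15 to 2.11 and the iron-sulfur enzymes from -1.29 to -1.36. Central carbon metabolism was lower with either set. Of 19 genes of glycolysis and fermentation 16 fell and none rose (median -0.60; 12 fell and 1 rose with total counts). TDH1, a glyceraldehyde-3-phosphate dehydrogenase, stood at 1181, 1193 and 690.2 CPM at 0 h and 387, 405 and 353 CPM at 3 h, with replicate C the lowest at 0 h (-1.42 ± 0.18, edgeR adjusted p = 0.00011), and at 212 ± 4.71 CPM at 1 h. In the tricarboxylic acid cycle 10 of 14 fell (median -0.37; 6 fell and 3 rose with total counts), and 12 of 20 genes of the respiratory chain fell, with a median of -0.29 that was 0.04 with total counts.

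Ribosomal protein genes held more decreases than any other list. Of 81 genes of the large cytosolic subunit 80 fell and 1 rose, and of 56 genes of the small subunit 54 fell and 1 rose. The medians were -1.15 and -1.26, and with total counts 80 and 53 fell. Without 0 h replicate C 2 small-subunit genes rose. RPL9A stood at 1510.4, 1560.5 and 1756 CPM at 0 h and 407, 411 and 377 CPM at 3 h (-2.01 ± 0.06, edgeR adjusted p = 7.3e-11). RPL7B stood at 178, 178 and 179.9 CPM at 0 h and 41.8, 43 and 40.1 CPM at 3 h (-2.1 ± 0.06, edgeR adjusted p = 2.9e-11), but differed in its course: its mean was 27.8 ± 2.37 CPM at 1 h and 68.5 ± 1.38 CPM at 6 h. Many of these genes have paralogs, whose reads the authors' counting could split.

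RPS9A was the small-subunit gene that rose, and RPL15B the large-subunit gene. RPS9A stood at 175, 176 and 226 CPM at 0 h and 397, 432 and 438 CPM at 3 h (1.14 ± 0.10, edgeR adjusted p = 1.2e-06), at 167 ± 5.7 CPM at 1 h and at 314 ± 34.7 CPM at 6 h, so that it exceeded 1 h by 1.33 (edgeR adjusted p = 7.2e-07). Between 1 h and 3 h, 42 of the 81 large-subunit genes and 38 of the 56 small-subunit genes fell, while 10 and 3 rose. Of 28 translation factor genes 23 fell and none rose (median -0.36; 8 fell and 6 rose with total counts). The mitochondrial ribosomal proteins changed less, with 25 of 72 lower and 3 higher and a median of -0.12 that was 0.21 with total counts, when 37 rose and 2 fell.

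Ribosome biogenesis genes went in both directions. Of 59 genes 13 rose and 11 fell (median 0.06), both smaller shares than the 26.3% and 24.5% of all tested features. With total counts 46 rose and 1 fell. The number that rose was 24 without 0 h replicate C, 7 without 0 h replicate A, 7 without 0 h replicate B, 8 without 3 h replicate B and 8 without 3 h replicate C. Against 1 h 32 of the 59 were higher and 1 was lower, and 51 fell from 3 h to 6 h. UTP15, a factor of small-subunit assembly, stood at 78.2, 90.3 and 123 CPM at 0 h and 137, 153 and 161 CPM at 3 h, with replicate C the highest at each time (0.63 ± 0.15, edgeR adjusted p = 0.0044). Its partner UTP9 stood at 60.4, 66.5 and 120.3 CPM at 0 h and 126, 141 and 152 CPM at 3 h (0.77 ± 0.25, edgeR adjusted p = 0.028), a call lost without 0 h replicate A (0.58), 0 h replicate B (0.61), 3 h replicate B (0.76) or 3 h replicate C (0.70).

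Of 20 genes of RNA polymerases I and III 8 rose and none fell, or 17 and none with total counts. The number that rose was 3 without each of 0 h replicate A, 0 h replicate B, 3 h replicate B and 3 h replicate C, and 10 without 0 h replicate C. RRN3, the initiation factor of RNA polymerase I, stood at 14.8, 20.3 and 35.9 CPM at 0 h and 52.8, 58.5 and 63.8 CPM at 3 h (1.32 ± 0.26, edgeR adjusted p = 0.0017).

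Mating genes fell between 1 h and 3 h. All 7 genes that mark mating type a fell against 0 h (median -1.33) and all 7 against 1 h (median -1.72). BAR1, the protease that degrades alpha-factor, stood at 227, 219 and 296 CPM at 0 h and 71.8, 73.8 and 65.9 CPM at 3 h (-1.81 ± 0.10, edgeR adjusted p = 8.5e-09), after 292 ± 16.7 CPM at 1 h. AGA2, the adhesion subunit of a-agglutinin, stood at 76.9, 72.9 and 66.8 CPM at 0 h and 20.8, 21.8 and 22.9 CPM at 3 h (-1.72 ± 0.08, edgeR adjusted p = 2.3e-09). In the pheromone response list 12 of 16 fell and none rose (9 fell and 1 rose with total counts). SST2, which damps the pheromone signal, fell from 140.0 ± 15.6 CPM to 65.9 ± 2.7 CPM (-1.09 ± 0.08, edgeR adjusted p = 1.4e-07). The tested alpha-specific genes SAG1 and STE3 did not pass the threshold, with log2 fold changes of -0.03 and 0.45 (edgeR adjusted p = 0.83 and 0.067).

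Histone genes and genes of daughter-cell separation were mostly lower. Of 10 histone genes 8 fell and 1 rose against 0 h (median -0.84), or 7 and 2 with total counts and 8 and none without 0 h replicate C. Of the 10, 9 were higher than at 1 h, and all 10 fell from 3 h to 6 h. HTA2, a histone H2A, stood at 236, 243 and 248 CPM at 0 h and 69.2, 76.5 and 63.7 CPM at 3 h (-1.8 ± 0.07, edgeR adjusted p = 3.5e-10), after 54.3 ± 1.34 CPM at 1 h. In a culture, fewer cells in a phase and less RNA per cell cannot be told apart. Of 13 genes of daughter-cell separation and late mitosis 10 fell and 2 rose (6 fell and 2 rose with total counts). CTS1, the chitinase that cuts daughters loose, stood at 844, 788 and 714 CPM at 0 h and 339, 321 and 314 CPM at 3 h (-1.27 ± 0.06, edgeR adjusted p = 1.8e-09), and DSE2, a daughter-specific glucanase, fell by 1.49 ± 0.08 (edgeR adjusted p = 6.4e-09). HO, which is transcribed in mother cells late in G1, stood at 18.3, 23.1 and 55.4 CPM at 0 h and 4.78, 7.0 and 5.48 CPM at 3 h, so that replicate C was the highest at 0 h (-2.47 ± 0.45, edgeR adjusted p = 0.0012).

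The genes of the inhibited pump had small changes. Of 8 genes of the soluble V1 sector 1 rose and 5 fell (median -0.25), and of 7 of the membrane Vo sector 5 fell and none rose (median -0.28). With total counts those medians were 0.08 and 0.06, when 3 and 2 rose and none fell, so their direction depends on the scaling. Log2 fold changes lay between -0.34 and 0.24 in V1 and between -0.44 and 0.12 in Vo. In the assembly factors 1 of 7 rose and 2 fell, with a median of -0.11 that was 0.22 with total counts. From 3 h to 6 h 7 of 8 V1 genes and 4 of 7 Vo genes fell.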

How the data were processed

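Total RNA of 12 BY4741 samples, 3 libraries at each of 0, 1, 3 and 6 h, was depleted of rRNA and sequenced from stranded libraries, per the labels' protocols. The authors deposited raw read counts for each feature. Build R64 and the tools featureCounts 1.5.1 and STAR 2.5.2b appear in the submitters' processing notes. The annotation release, strand setting and treatment of reads with several alignments were not given in the sources used here, so near-identical copies and genes that overlap on opposite strands are uncertain. The 6216 features exclude 3 blank lines.

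The test was edgeR 4.0.16 run in R 4.3.3 (TMM, filterByExpr, robust quasi-likelihood fit of all 12 libraries, 8 residual degrees of freedom, common dispersion 0.00753), which kept 5615 features and left 601 untested. The Benjamini-Hochberg adjustment ran over all tested features of each comparison, with a threshold of 0.05. CPM are edgeR's, from TMM-adjusted totals, and cannot be compared between genes of different length. Standard errors were taken from the log2 fold change and the F statistic. Replicate pairs exceeded sampling noise, with chi-square values per degree of freedom from 3.23 to 31.7, the highest for 0 h replicates A and C. Replicate letters come from the column heads. The steps were tested on simulated data.

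The gene lists (79) and the genes named were chosen with earlier results of these data known. The rule for named genes took the 15 largest increases and decreases past the threshold with a mean of 10 CPM or more at either time and no overlap between the groups, up to 5 members per direction of each list, and the V-ATPase genes and deletion markers; the text prints part of these. Genes outside the rule (SAG1, STE3, MF(ALPHA)1 and MF(ALPHA)2) were named as markers after their values were seen. A blastn 2.17.0 search marked near-identical copies. Alternatives were other scalings (DESeq2's size factors, total counts, nuclear reading frames only), filters, the DESeq2 1.42.0 Wald test, only the 6 libraries compared, a replicate block, each library left out, and a 2-fold threshold.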

Additional observations from a re-analysis of the deposited data

How the results depend on the processing

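The numbers of features called (2851 against 0 h, 1937 between 1 h and 3 h, 2396 from 3 h to 6 h) were within 1.5 times under all alternatives but the fold threshold. Calls of at least 2-fold numbered 403, 129 and 156. Leaving out each library in turn gave 2337 to 3181, 1417 to 1602 and 1792 to 2204 calls, the highest of the main comparison without 0 h replicate C. DESeq2 called 2711, 1814 and 2272 features, and fitting only the 6 libraries compared gave 2514, 2567 and 2733. The letters of the column heads were also used as a replicate block. Same-lettered libraries at 0 h and 3 h deviated together with correlations of 0.416, 0.0723 and 0.433. Not all were over 0.1 and the labels name no pairing, so the main test left the letters out. Deviations from a mean of 3 libraries are tied to each other, so these correlations cannot decide whether the libraries are paired. Each 3 h library did correlate best with its own letter at 0 h. The block gave 3161, 2366 and 2800 calls. No direction of a gene that changed, and whose log2 fold change is printed, turned under any alternative. Of 113 such genes 3 lost their call with total counts, 1 with only the 6 libraries, and 3 without each of 0 h replicates A and B and 3 h replicates B and C; none did under the other alternatives run, though FRE7 and ISF1 were not tested under the filter of at least 10 CPM in 3 libraries. Counts of list members depended most on the scaling: 91 of 158 moved by over 1.5 times with total counts, 12 to 23 without each library (23 without 0 h replicate B, 20 without 3 h replicate C, 19 without 0 h replicate C) and 2 with DESeq2's size factors. Depth limits the tRNAs, LSO1 and other features under a few CPM.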

Other observations

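Some of the largest changes lay outside the groups described above. IZH4, a membrane protein of the progestin receptor family, stood at 24.4, 23 and 22.3 CPM at 0 h and 108, 103 and 119 CPM at 3 h (2.24 ± 0.13, edgeR adjusted p = 2.7e-08). MOH1 stood at 3.3, 3.58 and 1.47 CPM at 0 h and 16.5, 18 and 18.2 CPM at 3 h (2.63 ± 0.21, edgeR adjusted p = 2.5e-07), and YOR338W at 15.2, 20.8 and 40.9 CPM at 0 h and 113, 149 and 144 CPM at 3 h, with replicate C the highest at 0 h (2.43 ± 0.29, edgeR adjusted p = 8.7e-05). BNA2, the dioxygenase that opens the kynurenine path to NAD, stood at 5.77, 8.94 and 8.85 CPM at 0 h and 27.4, 25.8 and 23.4 CPM at 3 h (1.71 ± 0.14, edgeR adjusted p = 4.4e-07). INO1, which makes inositol phosphate, rose to 16.9 ± 0.614 CPM from 9.42 ± 0.68 CPM (0.85 ± 0.09, edgeR adjusted p = 7.3e-06), and stood at 77.8 ± 5.94 CPM at 6 h. In the list of phospholipid synthesis, however, 2 of 15 genes rose and 10 fell (median -0.25). With total counts the median was 0.08, and 5 rose and 5 fell. Without 0 h replicate C 4 rose and 10 fell. Among decreases, EGO4 stood at 112, 116 and 39.5 CPM at 0 h and 24.7, 19.7 and 18.1 CPM at 3 h and ISF1 at 35.2, 33.6 and 11.8 CPM at 0 h and 7.06, 4.99 and 4.69 CPM at 3 h, with replicate C the lowest at 0 h in both (-2.11 ± 0.39 and -2.29 ± 0.38, edgeR adjusted p = 0.0015 and 0.00049). YMR085W stood at 40.3, 43.8 and 36.1 CPM at 0 h and 10.1, 9.76 and 8.4 CPM at 3 h (-2.09 ± 0.17, edgeR adjusted p = 4.1e-07) and at 28.3 ± 4.17 CPM at 6 h.

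Because total RNA was sequenced, non-coding RNAs could be followed. Among them, snoRNAs and snRNAs guide and carry out RNA modification, processing and splicing. Of 74 tested 39 fell and 4 rose (median log2 fold change -0.49), beside the 24.5% and 26.3% of all tested features. Of 16 tested tRNAs 7 rose and none fell (median 1.19), but each of them had a mean under 4 CPM at both times. The share of counts of snoRNAs and snRNAs was 5.49% to 6.12% at 0 h and 5.08% to 6.09% at 3 h. These ranges overlap, and the fall above is relative to the median feature under the TMM factors. In the mitochondrial genome 4 of 19 tested reading frames fell and none rose, beside the 24.5% and 26.3% of all tested features. Genes with the Yap1 motif TTACTAA, the Msn2/Msn4 motif AGGGG or the Met31/Met32 motif TGTGGC at least 2 times upstream numbered 46, 481 and 92. Of these 28.3%, 24.1% and 33.7% rose, and 17 of 46, 125 of 481 and 11 of 92 fell. Of genes with none of the motif in question 26.4%, 27.3% and 26.4% rose and 24.4%, 23.4% and 24.7% fell. Of the 570, 1482 and 755 genes with 1 match 21.6%, 25.6% and 22.9% fell. For Yap1 the share that fell was thus above that of genes with none at 2 or more matches, but below it at 1 match. For Msn2/Msn4 it was slightly above in both classes and near the 24.5% of all tested features. For Met31/Met32 it was below in both, and well below with 2 or more matches.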
